A study of Mus musculus with 24 samples.

Results

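The 9 genes followed here encode proteins that set how long cytokine mRNAs last, and they were chosen by name for that role out of 55471 genes in the count tables. They are *Zfp36*, *Zfp36l1*, *Zfp36l2*, *Zc3h12a*, *Zc3h12c*, *Rc3h1*, *Rc3h2*, *Arid5a* and *Elavl1*, and all 9 were among the 17522 genes that passed the filter on low counts. RNA-seq was done on 3T3 mouse embryonic fibroblasts (MEFs) that were wild type (WT), lacked LKB1 (LKB1 knockout, *Lkb1*-/-), or lacked LKB1 and CRTC2 (LKB1/CRTC2 knockout clones A1 and A2). Each was either left untreated or given IL-1β for 6 hours, with 3 libraries in each of the 8 groups and 24 in all. LKB1 is a kinase encoded by *Stk11*, and CRTC2 is a coactivator of the transcription factor CREB. Clones A1 and A2 were made from *Lkb1*-/- MEFs with guide RNAs to the first exon of *Crtc2* and are each 1 clone, so that both carry the LKB1 loss of the cells they are compared with. The sources name no second wild-type or *Lkb1*-/- line, so genotype and cell line cannot be told apart in any comparison between genotypes. Nothing states that libraries of a group came from separate cultures, so the p-values measure the spread between these libraries, which may be technical.

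Many cytokine mRNAs carry AU-rich elements or small stem-loops in their 3′ ends that mark them for rapid destruction. Tristetraprolin (the *Zfp36* product) and its relatives ZFP36L1 and ZFP36L2 bind AU-rich elements and recruit the CCR4-NOT deadenylase, which shortens the poly(A) tail. Regnase-1 (*Zc3h12a*) is an endonuclease that cuts stem-loop mRNAs such as *Il6*, its relative is encoded by *Zc3h12c*, and the Roquin proteins (*Rc3h1*, *Rc3h2*) bind the same kind of stem-loop and recruit deadenylases. ARID5A and HuR (*Elavl1*) work the other way, protecting stem-loop or AU-rich transcripts from decay. IL-1β induces several of these genes through NF-κB as well as their targets, which makes the network a brake that inflammatory signalling itself sets. Counts of mRNA show how much template for each protein is present, not its activity, which for tristetraprolin depends on phosphorylation by MK2. In bulk samples fewer cells that express a gene and less RNA per cell cannot be told apart.

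The libraries held 38842901 to 48594394 counts on genes (median 42431965). Levels below are CPM, counts divided by the TMM-scaled library size as edgeR gives them, with mean ± SD over 3 libraries. *Stk11* transcripts stood at 86.0 ± 1.68 CPM in untreated WT MEFs and 17.3 ± 1.24 CPM in untreated *Lkb1*-/- MEFs, a log2 change of -2.31. *Crtc2* transcripts stood at 81.2 ± 1.80 CPM in untreated *Lkb1*-/- MEFs, 42.9 ± 2.11 in clone A1 and 49.8 ± 0.864 in clone A2, so that transcripts of the targeted gene were lower and not absent in the clones. The paper checked the knockout at the protein level by western blot, and mRNA counts do not show whether protein is made. Summed fibroblast markers were at 5810 to 7060 CPM in untreated WT and 3880 to 4280 CPM in untreated *Lkb1*-/- libraries, and with IL-1β at 4780 to 5730 and 2890 to 3480 CPM. In A1 they were at 5910 to 6370 CPM untreated and 4660 to 5160 CPM with IL-1β, and in A2 at 4180 to 5490 and 3320 to 4010 CPM. Of these 6 markers 5 were over 1 CPM in WT and 4 in the other genotypes, *Thy1* being at or near 0. Single markers went different ways. Untreated *Col1a2* was at 780.1 ± 165 CPM in WT, 63.0 ± 15.7 in *Lkb1*-/-, 245.8 ± 41.3 in A1 and 127.6 ± 42.3 in A2 MEFs. *Col1a1*, *Vim* and *S100a4* were also lower in untreated *Lkb1*-/- than in WT MEFs. *Pdgfrb* was higher, at 93.7 ± 17.7 against 50.4 ± 16.0 CPM. Summed leukocyte markers reached at most 0.0732 CPM, with none of 5 over 1 CPM, and epithelial markers at most 0.447 CPM, with none of 4. Summed endothelial markers were at 0.37 to 0.595 CPM in WT and 2.06 to 3.8 CPM in the other genotypes, through *Kdr* alone of 3, while *Cdh5* was at or near 0. The part of these marker levels in the results was not tested.

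The annotation (GRCm38) places *Zfp36* at chr7:28376784-28380253, *Zfp36l1* at chr12:80107754-80113013 and *Zc3h12a* at chr4:125118423-125127840, all on the minus strand. These genes had the largest changes among the 9, and their promoters are shown for that reason. RefSeq promoters were matched for 8 of the 9 genes, the exception being *Zfp36l2*. The windows run from 250 bases before the RefSeq start site through the first 10 transcribed bases, 5′ to 3′ on the strand of the gene, in GRCm38.p6. Capitals mark matches to the motifs searched.
Zfp36 (chr7:28379219-28379478, minus strand): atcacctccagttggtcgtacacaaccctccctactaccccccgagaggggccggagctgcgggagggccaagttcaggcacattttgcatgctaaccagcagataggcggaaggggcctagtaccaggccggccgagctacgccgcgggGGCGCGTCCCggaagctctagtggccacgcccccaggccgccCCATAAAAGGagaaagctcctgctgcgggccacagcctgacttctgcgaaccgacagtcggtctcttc
Zfp36l1 (chr12:80113004-80113263, minus strand): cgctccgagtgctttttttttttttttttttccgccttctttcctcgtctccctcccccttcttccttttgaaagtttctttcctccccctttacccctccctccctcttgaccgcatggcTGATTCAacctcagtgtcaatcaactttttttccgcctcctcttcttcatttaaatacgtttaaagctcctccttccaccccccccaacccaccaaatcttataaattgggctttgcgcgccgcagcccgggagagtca
Zc3h12a (chr4:125127872-125128131, minus strand): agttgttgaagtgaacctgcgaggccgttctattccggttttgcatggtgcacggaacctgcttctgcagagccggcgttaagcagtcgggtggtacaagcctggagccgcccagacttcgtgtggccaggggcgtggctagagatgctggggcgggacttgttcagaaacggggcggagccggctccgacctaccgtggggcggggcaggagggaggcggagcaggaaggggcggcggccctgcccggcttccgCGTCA

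Motifs were searched on both strands in 300-base windows: a CREB half-site (TGACG), the full CREB site (TGACGTCA, which holds the half-site), an NF-κB type site (GGGANNNNCC), an AP-1 site (TGANTCA) and the CArG box of serum response factor. The *Zfp36* window held an NF-κB type match starting 100 bases and a CArG box starting 58 bases before the start site. *Zfp36l1* held an AP-1 match starting 129 bases before the start, and *Zc3h12a* a CREB half-site on the opposite strand starting 5 bases past it. Of 32851 mouse promoters of the same length, 20.8% held the half-site, 1.79% the full CREB site, 20.7% the NF-κB type site, 7.81% the AP-1 site and 1.63% the CArG box. The matches are letters in a window and not measured binding.

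**Figure D1:**
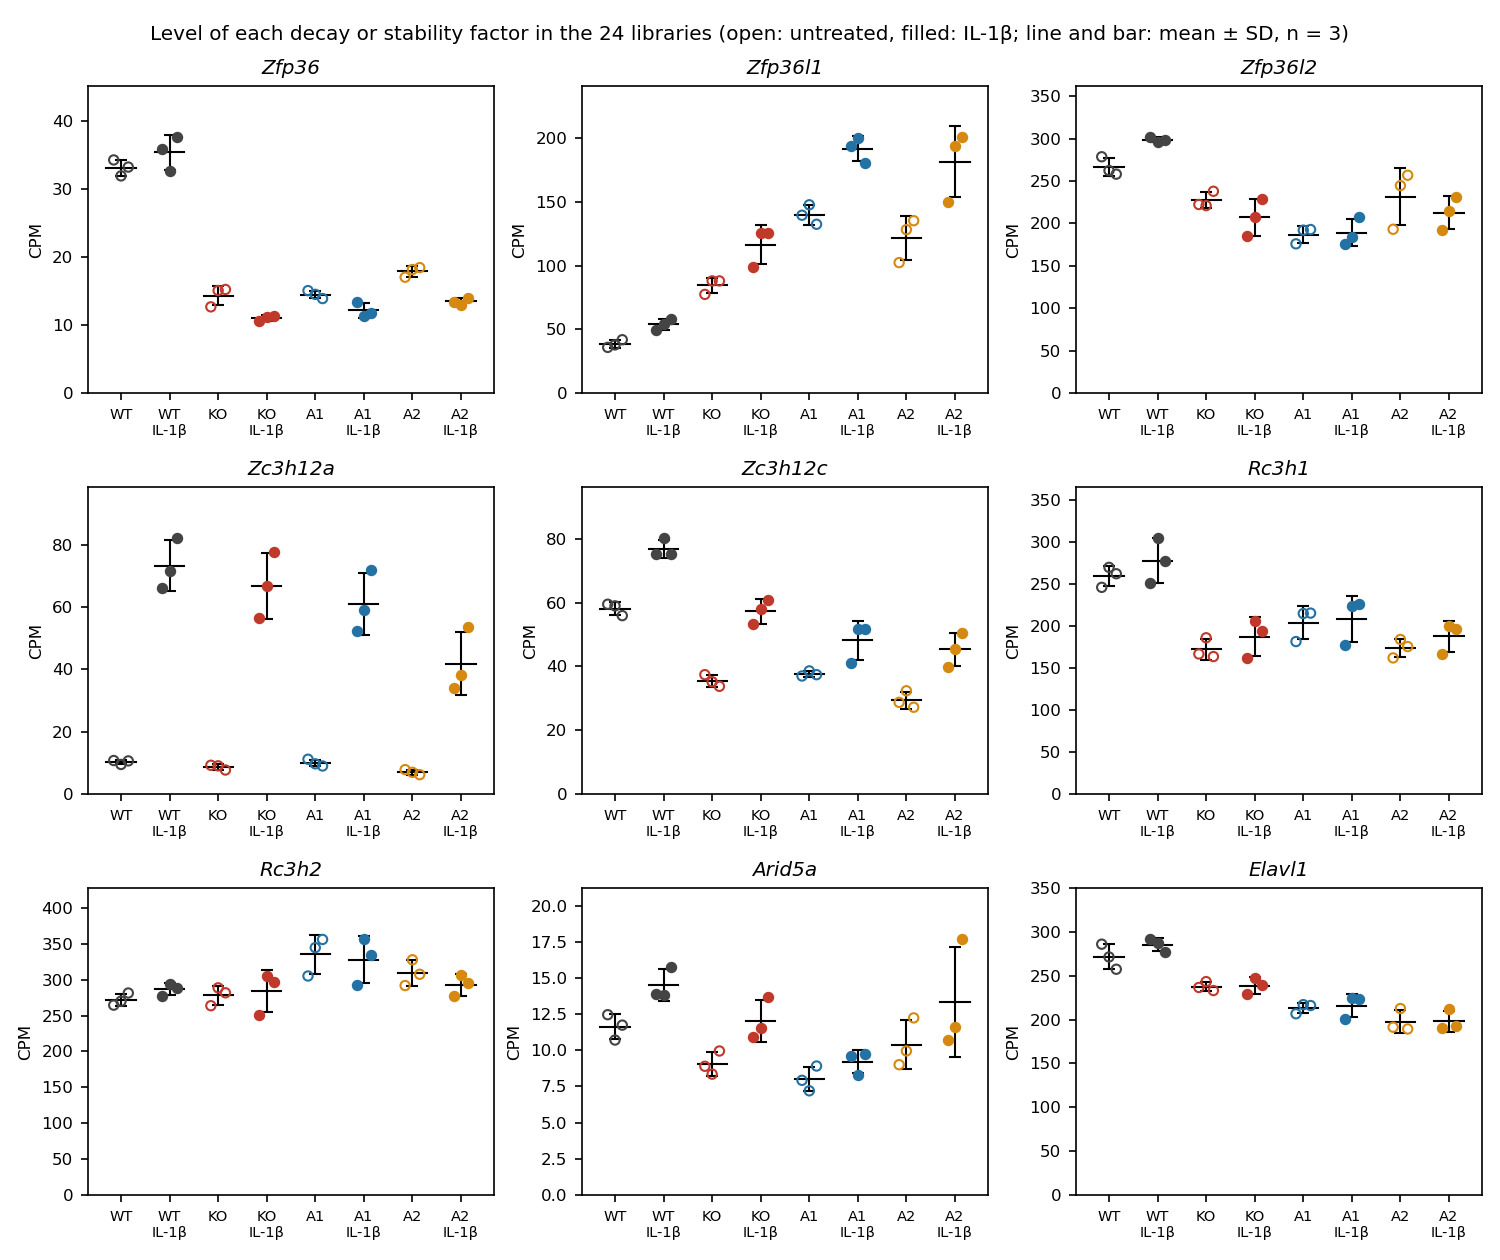
Level of each of the 9 genes in CPM (vertical axes, from 0) in the 8 groups (horizontal axes; WT wild type, KO *Lkb1*-/-, A1 and A2 the LKB1/CRTC2 knockout clones). Points are libraries (open untreated, filled IL-1β) and lines with bars are mean ± SD, n = 3; *Zfp36* was at 31.95 to 37.65 CPM in the 6 WT libraries and at 10.63 to 18.45 CPM in all others, while *Zc3h12a* rose with IL-1β in every genotype.

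The level of each transcript per kilobase of annotated exon gives the order of the factors in resting WT MEFs. *Zfp36l2* stood highest at 75.4 ± 3.07 CPM per kb, followed by *Elavl1* at 26.2 ± 1.38 and *Rc3h1* at 23.0 ± 1.07. *Rc3h2* at 13.9 ± 0.439 and *Zfp36l1* at 12.9 ± 1.03 CPM per kb had overlapping libraries. *Zfp36* (9.56 ± 0.338), *Zc3h12c* (8.50 ± 0.283), *Zc3h12a* (3.57 ± 0.245) and *Arid5a* (0.928 ± 0.0703) followed, with no overlap between neighbours. Among the 9 genes the most abundant mRNA by this measure was *Zfp36l2*, and the mRNA of tristetraprolin itself ranked sixth. Genes of the other lists were not put on this scale. The exon lengths are unions over all annotated isoforms, from 2.88 kb for *Zc3h12a* to 19.6 kb for *Rc3h2*, and understate the level of a gene whose long isoforms were not made.

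*Lkb1*-/- MEFs were first compared with WT MEFs to ask whether the decay machinery differs where LKB1 is absent. The mRNA of tristetraprolin was lower and that of its relative ZFP36L1 higher in *Lkb1*-/- MEFs, with or without IL-1β. *Zc3h12c*, *Rc3h1*, *Zfp36l2* and *Elavl1* were also lower, by smaller amounts, and *Rc3h2* was not called. In each treatment 6 of the 9 genes passed the test (edgeR quasi-likelihood, FDR under 0.05), 1 higher and 5 lower. Among all genes tested, 55.9% were called without IL-1β and 57.4% with it, 30.1% and 30.2% as higher and 25.8% and 27.1% as lower, so that a call by itself sets none of these genes apart. The median log2 change of the 9 genes was -0.25 without IL-1β and -0.27 with it, against 0.04 and 0.03 over all genes.

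*Zfp36* was at 34.3, 31.95 and 33.25 CPM in untreated WT libraries and at 12.68, 15.08 and 15.24 CPM in untreated *Lkb1*-/- libraries. With IL-1β it was at 35.92, 32.64 and 37.65 CPM in WT and at 10.63, 11.16 and 11.39 CPM in *Lkb1*-/- libraries. Every *Lkb1*-/- library lay below every WT library by a wide gap. The log2 change was -1.21 ± 0.080 (SE, FDR 3.6e-11) without IL-1β, 2.31-fold lower, and -1.68 ± 0.081 (FDR 2.4e-13) with it, 3.2-fold lower. *Zfp36* is the archetype of the family, and mice without it develop TNF-driven inflammation.

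*Zfp36l1* moved the opposite way. It was at 35.84, 37.78 and 41.86 CPM in untreated WT libraries and at 77.44, 88.05 and 88.02 CPM in untreated *Lkb1*-/- libraries, and with IL-1β at 49.81, 53.93 and 57.98 against 98.73, 125.8 and 125.3 CPM. No libraries overlapped, and the log2 change was 1.13 ± 0.12 (FDR 4.2e-08) without and 1.11 ± 0.12 (FDR 4.9e-08) with IL-1β. *Zfp36l2*, the most abundant relative, was at 278.6, 262.3 and 258.1 CPM in untreated WT and 222.3, 221.0 and 237.9 CPM in untreated *Lkb1*-/- libraries. With IL-1β it was at 301.7, 296.5 and 298.1 CPM against 185.3, 207.4 and 228.7 CPM. Its log2 change was -0.53 ± 0.094 (FDR 5.6e-05) with IL-1β. Without IL-1β it was -0.23 ± 0.094 (FDR 0.043), a call that was lost without WT replicate 1 (-0.20, FDR 0.13), WT replicate 2 (-0.24, FDR 0.070) or *Lkb1*-/- replicate 2 (-0.21, FDR 0.12), and under upper quartile scaling (-0.15, FDR 0.061).

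**Figure D2:**
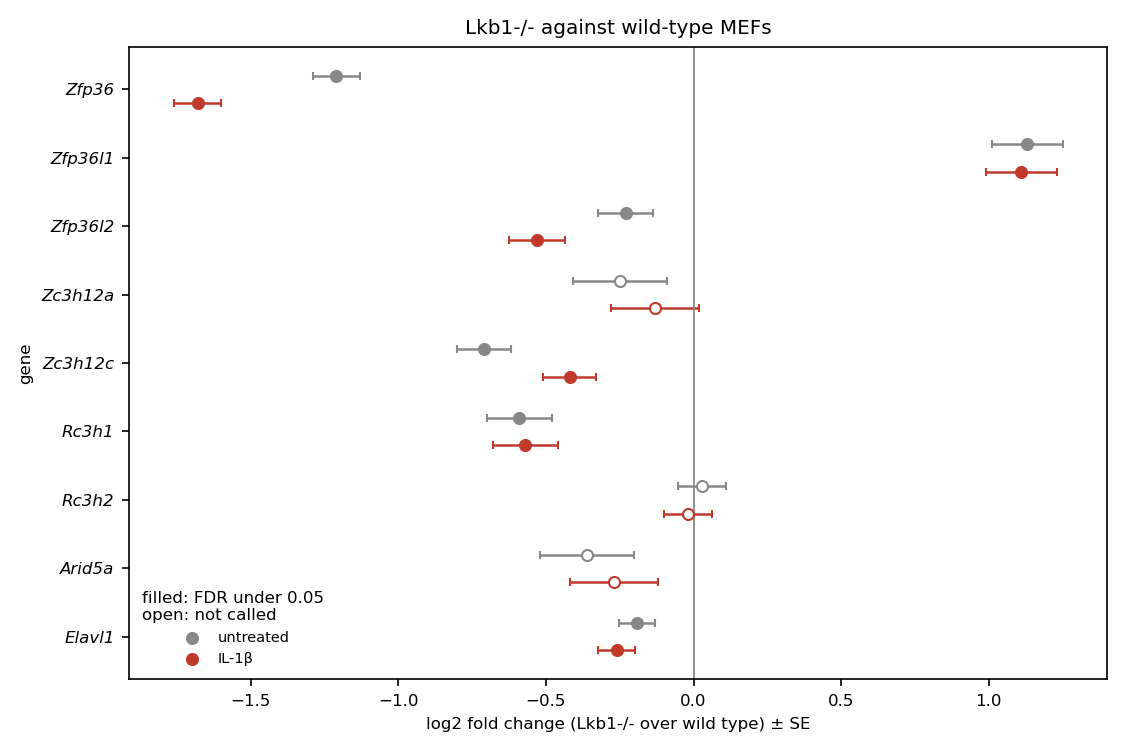
Log2 fold change of each gene in *Lkb1*-/- over WT MEFs (horizontal axis) ± SE, untreated in grey and IL-1β in red, from edgeR fits to 3 libraries a group; filled points passed FDR 0.05. *Zfp36* lies at -1.21 and -1.68 and *Zfp36l1* at 1.13 and 1.11, with the other 7 genes between -0.71 and 0.03.

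Set side by side per kilobase, the make-up of the family differed between WT and *Lkb1*-/- MEFs, with lower *Zfp36* and *Zfp36l2* and higher *Zfp36l1*. In untreated WT MEFs *Zfp36* made up 9.77 ± 0.169%, *Zfp36l1* 13.2 ± 1.30% and *Zfp36l2* 77.1 ± 1.37% of the summed family level. In untreated *Lkb1*-/- MEFs the shares were 4.27 ± 0.287%, 29.2 ± 1.25% and 66.5 ± 1.60%. The summed level was 97.9 ± 2.67 CPM per kb in the former and 96.6 ± 4.25 in the latter, and with IL-1β 113 ± 2.08 in WT and 101 ± 11.0 in *Lkb1*-/- MEFs. In the clones it was 104 ± 3.61 in A1 and 111 ± 15.4 in A2 untreated, and 121 ± 2.08 and 125 ± 14.4 with IL-1β. The ratio of *Zfp36l1* to *Zfp36* was 1.35 ± 0.127 in untreated WT, 1.77 ± 0.156 in WT with IL-1β, 6.86 ± 0.206 in untreated *Lkb1*-/- and 12.2 ± 1.25 in *Lkb1*-/- MEFs with IL-1β. In the clones *Zfp36l1* took a still larger share, at 45.0 ± 1.78% in untreated A1 and 36.6 ± 0.115% in untreated A2, and 52.9 ± 3.06% and 48.5 ± 2.14% with IL-1β. These shares are derived from the levels above and carry no test of their own. They also depend on the exon lengths. The annotated exon of *Zfp36* is 1 block of 3470 bases that spans the whole gene and holds the promoter window shown above. The share of *Zfp36* is understated if its mRNA is shorter than that. The lengths are the same in every library.

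**Figure D3:**
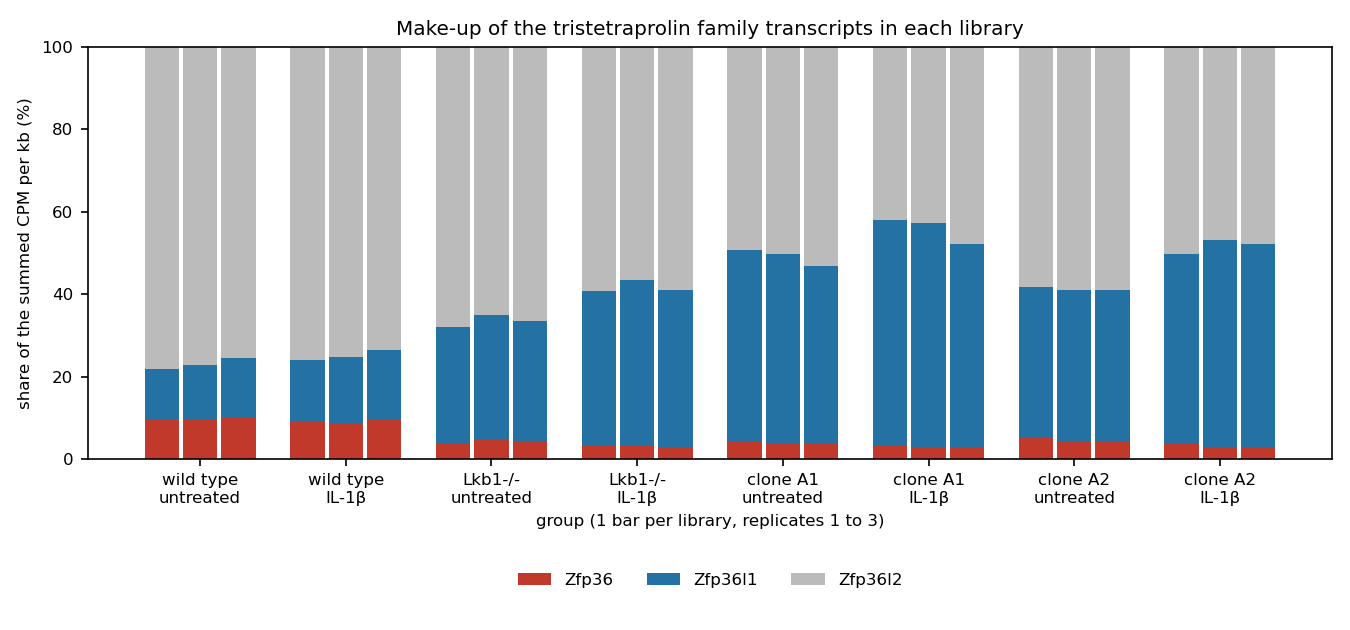
Share of *Zfp36* (red), *Zfp36l1* (blue) and *Zfp36l2* (grey) in their summed level per kilobase (vertical axis, percent), 1 bar per library in the 8 groups. The red share averaged 9.77% in untreated WT and 4.27% in untreated *Lkb1*-/- libraries, and the blue share rose from 13.2% to 29.2%. Shares depend on the annotated exon lengths.

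The endonuclease and stem-loop binders showed a mixed picture. *Zc3h12c* was at 59.53, 59.01 and 55.95 CPM in untreated WT and 37.44, 35.2 and 33.78 CPM in untreated *Lkb1*-/- libraries, a log2 change of -0.71 ± 0.090 (FDR 6.9e-07). With IL-1β it was at 75.22 to 80.25 CPM in WT and 53.21 to 60.81 CPM in *Lkb1*-/-, a change of -0.42 ± 0.089 (FDR 0.00033). Regnase-1 mRNA did not pass the test in either state. *Zc3h12a* was at 10.76, 9.485 and 10.64 against 9.236, 9.049 and 7.714 CPM without IL-1β (log2 change -0.25, 95% interval -0.59 to 0.09) and at 66.25, 71.7 and 82.18 against 56.44, 66.79 and 77.58 CPM with it (-0.13, -0.44 to 0.18). The Roquin genes parted: *Rc3h1* was lower and *Rc3h2* was not called. *Rc3h1* was at 246.3, 270.1 and 262.5 CPM in untreated WT and 166.9, 186.2 and 163.8 CPM in untreated *Lkb1*-/- libraries (-0.59 ± 0.11, FDR 7.1e-05), and the change with IL-1β was -0.57 ± 0.11 (FDR 0.00011). *Rc3h2* ranged from 264.5 to 281.4 CPM in untreated WT and from 263.7 to 288.6 CPM in untreated *Lkb1*-/- libraries, with a log2 change of 0.03 (95% interval -0.14 to 0.20), and 1 of -0.02 (-0.18 to 0.15) with IL-1β. Both intervals include 0.

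Of the stabilising factors, HuR mRNA was slightly lower and *Arid5a* was near the threshold. *Elavl1* was at 286.1, 271.5 and 257.5 CPM in untreated WT and 236.7, 243.4 and 233.2 CPM in untreated *Lkb1*-/- libraries. Its log2 change was -0.19 ± 0.061 (FDR 0.011) without IL-1β and -0.26 ± 0.062 (FDR 0.0011) with it. The untreated call was lost without WT replicate 1 (-0.15, FDR 0.066) and under upper quartile scaling (-0.11, FDR 0.095). *Arid5a* was at 12.46, 10.71 and 11.74 against 8.897, 8.353 and 9.952 CPM without IL-1β (-0.36 ± 0.16, FDR 0.056) and at 13.92, 13.8 and 15.77 against 10.91, 11.53 and 13.67 CPM with it (-0.27 ± 0.15, FDR 0.15). Its WT and *Lkb1*-/- libraries did not overlap in either state. With the replicate number as a block the IL-1β comparison gave -0.27 at FDR 0.024, and the untreated *Arid5a* difference passed without WT replicate 3 (-0.41, FDR 0.047) or *Lkb1*-/- replicate 3 (-0.48, FDR 0.022), with DESeq2 (-0.37, FDR 0.041) and in unstranded counts (-0.45, FDR 0.018).

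The response to 6 hours of IL-1β was then measured within each genotype. Regnase-1 mRNA was the strongly induced factor in all 4, between 5.97-fold and 7.72-fold. *Zfp36l1* and *Zc3h12c* also rose in all 4, by less than 1 on the log2 scale, whereas *Zfp36* was not called in WT and fell in *Lkb1*-/- and A2 MEFs. Calls were made for 3 of the 9 genes in WT (3 higher), 4 in *Lkb1*-/- (3 higher, 1 lower), 3 in A1 (3 higher) and 4 in A2 (3 higher, 1 lower). Of all genes, 2.26% were called in WT (1.53% higher, 0.731% lower), 4.74% in *Lkb1*-/- (2.65% higher, 2.09% lower), 1.99% in A1 (1.2% higher, 0.788% lower) and 5.68% in A2 (2.81% higher, 2.86% lower). The share of these 9 genes that was called was 33.3% or 44.4%, above that of all genes in each genotype, and no enrichment was tested. The 9 genes were chosen with earlier results of these data known.

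*Zc3h12a* rose from 9.485 to 10.76 CPM in untreated WT libraries to 66.25 to 82.18 CPM with IL-1β, a log2 change of 2.83 ± 0.16 (FDR 2.9e-10). In *Lkb1*-/- MEFs it rose from 7.714 to 9.236 CPM to 56.44 to 77.58 CPM, by 2.95 ± 0.17 (FDR 1.1e-10). It rose by 2.62 ± 0.16 (FDR 1.4e-09) in A1 and by 2.58 ± 0.16 (FDR 1.4e-09) in A2. Untreated and treated libraries were far apart in every genotype. *Zc3h12c* rose by 0.40 ± 0.089 in WT (FDR 0.014), 0.69 ± 0.090 in *Lkb1*-/- (FDR 3.2e-05), 0.36 ± 0.090 in A1 (FDR 0.041) and 0.62 ± 0.090 in A2 (FDR 0.00011). The WT call for *Zc3h12c* was lost without untreated replicate 2 (0.41, FDR 0.060), untreated replicate 3 (0.36, FDR 0.077) or IL-1β replicate 2 (0.37, FDR 0.080). The A1 call was lost without any 1 of untreated replicates 1, 2 and 3 (0.34, 0.38 and 0.35, FDR 0.14, 0.11 and 0.15) or IL-1β replicates 2 and 3 (0.31 and 0.32, FDR 0.21 and 0.14).

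*Zfp36l1* rose from 35.84 to 41.86 CPM to 49.81 to 57.98 CPM in WT (0.49 ± 0.12, FDR 0.027) and from 77.44 to 88.05 CPM to 98.73 to 125.8 CPM in *Lkb1*-/- libraries (0.46 ± 0.12, FDR 0.019). In A1 it rose by 0.46 ± 0.11 (FDR 0.041) and in A2 by 0.57 ± 0.11 (FDR 0.0031). The log2 changes ranged from 0.46 to 0.57, while untreated levels ranged from 38.5 ± 3.07 CPM in WT to 139.9 ± 7.64 CPM in A1. The WT call for *Zfp36l1* was lost without untreated replicate 1 (0.44, FDR 0.11), untreated replicate 2 (0.47, FDR 0.13), IL-1β replicate 2 (0.49, FDR 0.089) or IL-1β replicate 3 (0.41, FDR 0.12). The *Lkb1*-/- call was lost without untreated replicate 1 (0.41, FDR 0.063), IL-1β replicate 2 (0.41, FDR 0.11) or IL-1β replicate 3 (0.43, FDR 0.059). In A1 it was lost without untreated replicates 1, 2 or 3 (0.45, 0.50 and 0.42, FDR 0.12, 0.089 and 0.20) or IL-1β replicates 1 or 2 (0.45 and 0.42, FDR 0.13 and 0.17). The direction was upward each time, and the A2 call was kept in all 6 such fits.

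*Zfp36* went from 31.95 to 34.3 CPM to 32.64 to 37.65 CPM in WT, with overlapping libraries and a log2 change of 0.09 ± 0.078 (FDR 0.75, 95% interval -0.07 to 0.26). In *Lkb1*-/- MEFs it went from 12.68, 15.08 and 15.24 CPM down to 10.63, 11.16 and 11.39 CPM, a change of -0.37 ± 0.081 (FDR 0.0066). In A2 it went from 17.04, 18.17 and 18.45 CPM down to 13.46, 13.02 and 13.93 CPM (-0.41 ± 0.080, FDR 0.0025). Treated libraries lay below untreated libraries in both. In A1, 15.07, 14.52 and 13.9 CPM went to 13.41, 11.35 and 11.81 CPM (-0.25 ± 0.081, FDR 0.15), which passed with the replicate block (FDR 0.044). The *Lkb1*-/- call was lost without untreated replicate 2 (-0.33, FDR 0.052), with no filter on low counts (-0.36, FDR 0.053) and in a fit to these 2 groups alone (-0.35, FDR 0.069), and the A2 call in its own such fit (-0.38, FDR 0.091).

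The remaining 5 genes were not called in any genotype. *Zfp36l2* gave log2 changes between -0.13 and 0.17, *Rc3h1* between 0.03 and 0.12, *Rc3h2* between -0.08 and 0.08 and *Elavl1* between 0.00 and 0.07. *Arid5a*, a gene that inflammatory stimuli induce in macrophages, gave 0.32 in WT (FDR 0.45), 0.41 in *Lkb1*-/- (FDR 0.18), 0.20 in A1 (FDR 0.76) and 0.36 in A2 (FDR 0.22). With the replicate block it passed in *Lkb1*-/- (0.41, FDR 0.0092) and A2 (0.35, FDR 0.021). Its treated libraries lay above the untreated ones in WT and *Lkb1*-/- MEFs and overlapped with them in both clones.

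**Figure D4:**
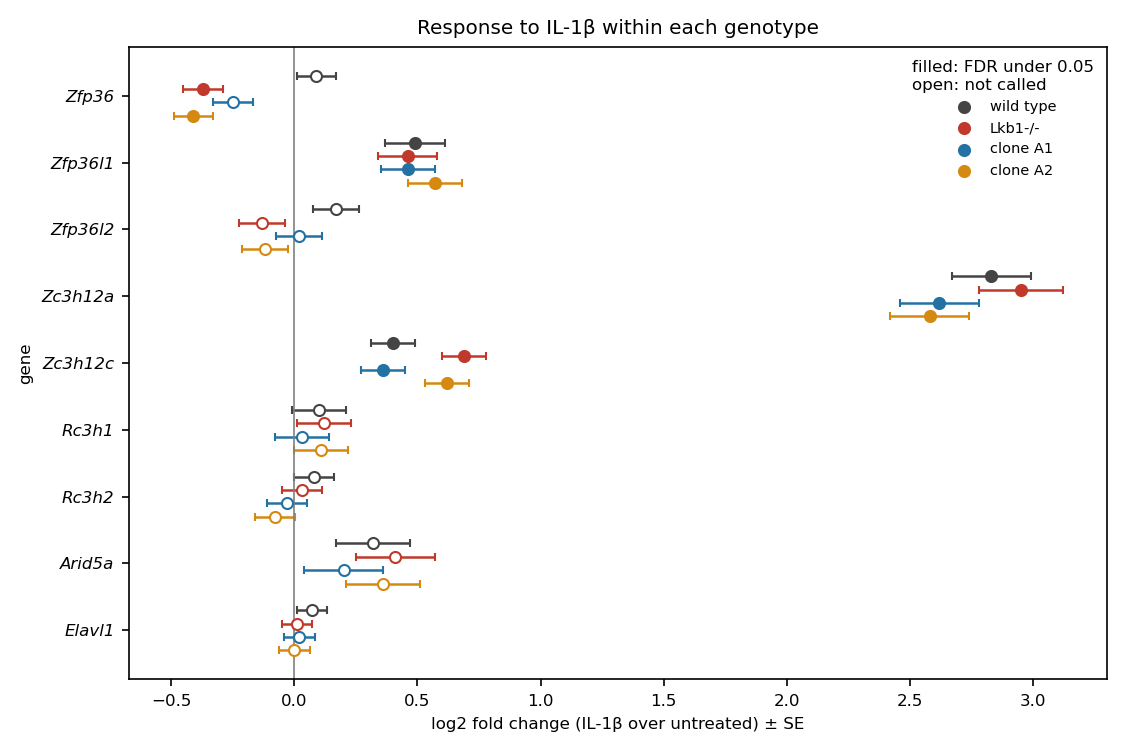
Log2 fold change of each gene with 6 hours of IL-1β (horizontal axis) ± SE in WT (black), *Lkb1*-/- (red), A1 (blue) and A2 (orange) MEFs, n = 3 libraries a group; filled points passed FDR 0.05. *Zc3h12a* lies between 2.58 and 2.95 in all 4 and *Zfp36* at 0.09, -0.37, -0.25 and -0.41.

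Whether a response differed between genotypes was tested as the difference of responses. None of the 9 genes passed for *Lkb1*-/- minus WT, A1 minus *Lkb1*-/- or A2 minus *Lkb1*-/- (edgeR), with 3, 1 and 0 of them at an unadjusted p under 0.05. Of all genes 0.245%, 0.0285% and 0% were called, and DESeq2 called 1, 0 and 0 of the 9. The widest difference was that of *Zfp36* between *Lkb1*-/- and WT MEFs, -0.47 ± 0.11 (FDR 0.11), which passed with DESeq2 (-0.43, FDR 0.026), and without untreated *Lkb1*-/- replicate 1 (-0.52, FDR 0.047). It also passed with the replicate number as a block (-0.47, FDR 0.019) and with a block within each genotype (-0.46, FDR 0.0017), and in the latter *Zfp36l2* passed as well (-0.30, FDR 0.0040). Both genes were higher with IL-1β in all 3 same-numbered WT pairs and lower in all 3 *Lkb1*-/- pairs. For *Zc3h12a* the response of *Lkb1*-/- minus that of WT MEFs was 0.12 (95% interval -0.34 to 0.58). The interval includes 0, and equal induction was not shown. The clone responses of *Zc3h12a* minus that of *Lkb1*-/- MEFs were -0.33 (-0.79 to 0.13) for A1 and -0.37 (-0.83 to 0.09) for A2, and share the *Lkb1*-/- libraries.

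The clones were compared with *Lkb1*-/- MEFs to see which differences remained once CRTC2 was also lost. *Zfp36l1*, already high without LKB1, was higher still in both clones, and *Zfp36* remained near the *Lkb1*-/- level in A1 and slightly above it in A2, far below WT in either. *Zc3h12c* was lower with IL-1β in both, Regnase-1 mRNA with IL-1β in A2, and HuR mRNA in A2 in both states. Of the 9 genes, 3 were called in untreated A1 (2 higher, 1 lower) and 4 in untreated A2 (2 higher, 2 lower), where 35.3% (18.9% higher, 16.4% lower) and 32.3% (17.1% higher, 15.1% lower) of all genes were called. With IL-1β 2 were called in A1 (1 higher, 1 lower) and 5 in A2 (2 higher, 3 lower), where 36.7% (19.4% higher, 17.3% lower) and 32.8% (17.1% higher, 15.8% lower) of all genes were called. Both clones are compared with the same *Lkb1*-/- libraries. With the replicate block 6 were called in IL-1β-treated A1 (3 higher, 3 lower), where the same fit called 49.1% of all genes, as *Rc3h1* (0.16, FDR 0.017), *Rc3h2* (0.21, FDR 0.00089), *Arid5a* (-0.38, FDR 0.0041) and *Elavl1* (-0.14, FDR 0.019) passed. Without the block *Rc3h2* there passed without A1 replicate 1 (0.28, FDR 0.012), *Lkb1*-/- replicate 2 (0.26, FDR 0.033) or *Lkb1*-/- replicate 3 (0.24, FDR 0.033). It also passed with upper quartile scaling (FDR 0.0051), a minimum of 10 counts in all libraries (FDR 0.013) and unstranded counts (FDR 0.04). The newer quasi-likelihood method (FDR 0.049) and DESeq2 (FDR 0.041) called it too. *Arid5a* there was at -0.39 ± 0.16 (FDR 0.058) without the block, with A1 libraries at 9.613, 8.288 and 9.738 CPM below the *Lkb1*-/- libraries at 10.91, 11.53 and 13.67 CPM, and passed in 4 further alternatives and DESeq2 at FDR 0.031 to 0.040.

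*Zfp36l1* was at 139.6, 147.8 and 132.5 CPM in untreated A1 and 102.4, 128.3 and 135.3 CPM in untreated A2, against 77.44, 88.05 and 88.02 CPM in *Lkb1*-/- libraries. With IL-1β it was at 194.3, 200.5 and 181 CPM in A1 and 149.7, 194.2 and 200.9 CPM in A2, against 98.73, 125.8 and 125.3 CPM. All clone libraries lay above all *Lkb1*-/- libraries of the same treatment. The log2 changes were 0.73 ± 0.12 (FDR 4.5e-05) and 0.53 ± 0.12 (FDR 0.0013) without IL-1β, and 0.72 ± 0.12 (FDR 4.7e-05) and 0.64 ± 0.12 (FDR 0.00021) with it, for A1 and A2. *Zfp36* was 0.02 ± 0.080 (95% interval -0.15 to 0.18) from the *Lkb1*-/- level in untreated A1 and 0.14 ± 0.081 (-0.03 to 0.31) with IL-1β. In A2 it was higher by 0.32 ± 0.080 (FDR 0.0039) and 0.28 ± 0.081 (FDR 0.0096), calls that were lost with no filter on low counts (FDR 0.064 and 0.12). *Zfp36l2* was lower in untreated A1 (-0.28 ± 0.094, FDR 0.024), a call lost without A1 replicate 1 (-0.24, FDR 0.10) or *Lkb1*-/- replicate 3 (-0.24, FDR 0.065), and was not called in the other 3 comparisons.

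Regnase-1 mRNA with IL-1β was at 52.31, 59.24 and 71.96 CPM in A1 and 34.03, 38.18 and 53.5 CPM in A2, against 56.44, 66.79 and 77.58 CPM in *Lkb1*-/- libraries. The A2 libraries lay below all *Lkb1*-/- libraries. The A1 libraries overlapped with them, 1 lying below all *Lkb1*-/- libraries and each below the *Lkb1*-/- library of its number. The log2 change was -0.68 ± 0.15 (FDR 0.0015) in A2 and -0.13 ± 0.15 (95% interval -0.44 to 0.18) in A1. *Zc3h12c* with IL-1β was lower, with a log2 change of -0.34 ± 0.089 in A2 (FDR 0.0055) and -0.25 ± 0.089 in A1 (FDR 0.033). The A1 call was lost without A1 replicate 1 (-0.15, FDR 0.21), *Lkb1*-/- replicate 2 (-0.24, FDR 0.083) or *Lkb1*-/- replicate 3 (-0.20, FDR 0.13). In untreated A2 *Zc3h12c* was lower, with a log2 change of -0.27 ± 0.090 (FDR 0.026), and was not called without *Lkb1*-/- replicate 1 (-0.20, FDR 0.14), *Lkb1*-/- replicate 2 (-0.28, FDR 0.056), A2 replicate 1 (-0.24, FDR 0.066) or A2 replicate 3 (-0.19, FDR 0.15).

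*Rc3h2* was at 305.1, 344.6 and 356 CPM in untreated A1 against 263.7, 288.6 and 281.7 CPM in *Lkb1*-/- libraries, higher by 0.27 ± 0.081 (FDR 0.012). That call was lost without A1 replicate 3 (0.23, FDR 0.066). In untreated A2 *Rc3h2* gave 0.15 ± 0.081 (FDR 0.17), which passed with the replicate block (FDR 0.011). *Rc3h1*, lower in *Lkb1*-/- than in WT, was at 162.2 to 184.2 CPM in untreated A2, among the *Lkb1*-/- libraries, with a log2 change of 0.01 (95% interval -0.21 to 0.24), and at 181.7 to 215.6 CPM in untreated A1 (0.24, FDR 0.083). The A1 value passed without A1 replicate 1 (0.32, FDR 0.040) and with upper quartile scaling (0.25, FDR 0.023), no filter (0.23, FDR 0.025), a minimum of 10 counts in all libraries (0.23, FDR 0.043), the replicate block (0.24, FDR 0.00064) or the compared groups only (0.21, FDR 0.044). *Elavl1* was at 191.4, 212.7 and 189.4 CPM in untreated A2 and 190, 212.2 and 192.6 CPM with IL-1β, below every *Lkb1*-/- library, with a log2 change of -0.27 ± 0.062 in each state (FDR 0.0021 and 0.0019). In A1 it gave -0.16 (FDR 0.053) and -0.14 (FDR 0.073). The untreated A1 value of *Elavl1* passed in 6 alternatives, at FDR 0.0070 to 0.041, among them DESeq2 (-0.16, FDR 0.016), and the IL-1β value passed with DESeq2 (-0.15, FDR 0.027).

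**Figure D5:**
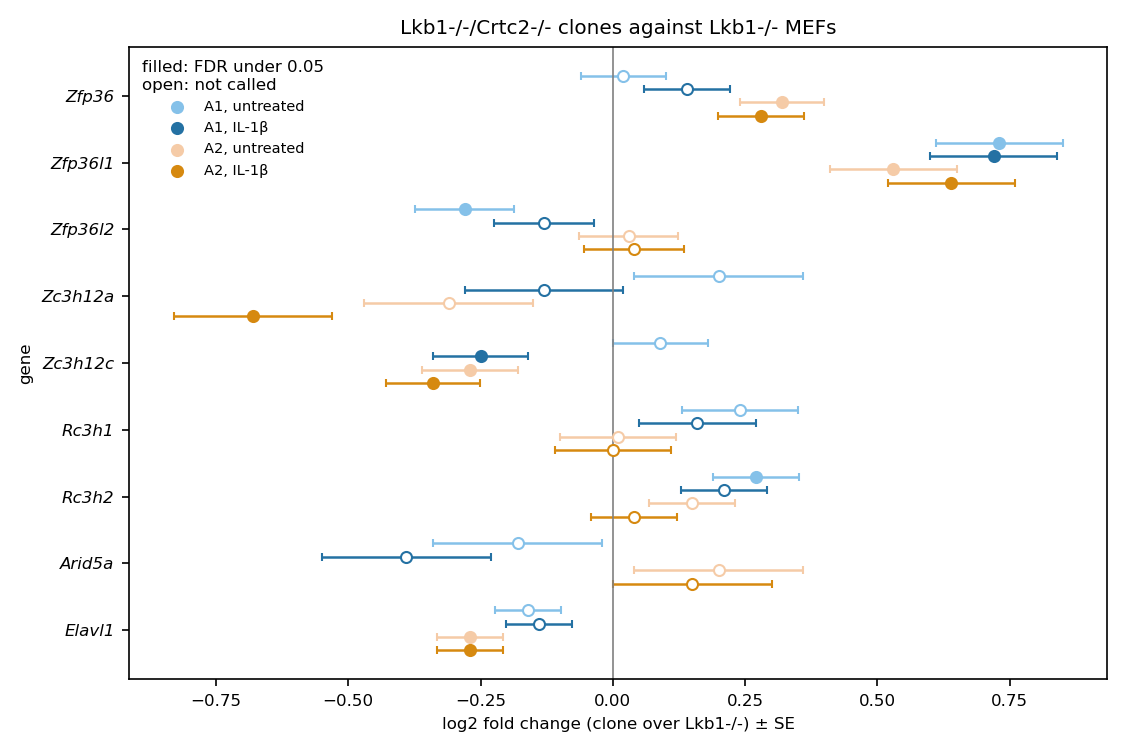
Log2 fold change of each gene in clone A1 (blue) or A2 (orange) over *Lkb1*-/- MEFs (horizontal axis) ± SE, untreated in the lighter and IL-1β in the darker shade, n = 3 libraries a group; filled points passed FDR 0.05. *Zfp36l1* lies between 0.53 and 0.73 in all 4 comparisons, and *Zc3h12a* in IL-1β-treated A2 at -0.68.

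The clones also differed from each other. Untreated A2 and A1 differed in 4 of the 9 genes, where 32.5% of all genes did (15.8% higher in A2, 16.7% lower), with *Zfp36* (0.30, FDR 0.0057) and *Zfp36l2* (0.31, FDR 0.015) higher and *Zc3h12a* (-0.51, FDR 0.022) and *Zc3h12c* (-0.36, FDR 0.0042) lower in A2. Only the *Zfp36* and *Zc3h12c* calls were kept in all 6 fits without 1 library. Without A1 replicate 1 or A2 replicate 3, *Zfp36l2* gave 0.27 and 0.24 (FDR 0.074 and 0.050) and *Zc3h12a* -0.42 and -0.41 (FDR 0.10 and 0.098), and without A2 replicate 2 *Zc3h12a* gave -0.49 (FDR 0.055). With IL-1β 2 of 9 differed, where 30.7% of all genes did (15.1% higher in A2, 15.6% lower). *Zc3h12a* was lower in A2 (-0.55, FDR 0.0083, and -0.42 at FDR 0.057 without A1 replicate 3). *Arid5a* was higher in A2, at 10.7, 11.64 and 17.68 CPM against 9.613, 8.288 and 9.738 CPM in A1 (0.53, FDR 0.012). It was not called without A2 replicate 3 (0.27, FDR 0.13) or A1 replicate 2 (0.46, FDR 0.067). With the replicate block 5 were called with IL-1β, where the same fit called 44.4% of all genes, as *Rc3h1* (-0.15, FDR 0.023), *Rc3h2* (-0.16, FDR 0.0081) and *Elavl1* (-0.12, FDR 0.047) passed.

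The machinery that these factors recruit was examined through fixed lists. Of 17 CCR4-NOT and PAN deadenylase genes, 10 were called in untreated *Lkb1*-/- against WT MEFs (2 higher, 8 lower) and 11 with IL-1β (2 higher, 9 lower), with medians of -0.09 and -0.16 against 0.04 and 0.03 over all genes. These are 58.8% and 64.7% of the list, where 55.9% and 57.4% of all genes were called. *Cnot2*, a subunit of CCR4-NOT, was lower, with a log2 change of -0.67 (FDR 9.4e-08) and -0.75 (FDR 1.7e-08), and *Tob1*, an adaptor for the complex, was also lower (-0.76, FDR 2.7e-07, and -0.71, FDR 7.5e-07). *Cnot7*, a catalytic subunit, was higher by 0.23 (FDR 0.0023) and 0.38 (FDR 9.9e-06). *Btg1*, another adaptor, was higher by 0.21 (FDR 0.0060) and 0.58 (FDR 5.4e-08), and rose with IL-1β in *Lkb1*-/- MEFs by 0.46 (FDR 4.1e-05), in A1 by 0.33 (FDR 0.0040) and in A2 by 0.56 (FDR 3.3e-06). In WT its log2 change was 0.09 (FDR 0.65). For the response of *Lkb1*-/- minus that of WT MEFs none of the 17 genes was called, where 0.245% of all genes were. Of the 17, 1 was at an unadjusted p under 0.05 (edgeR), so a different *Btg1* response was not shown. No gene of this list was called with IL-1β in WT (edgeR without a replicate block, 1 at an unadjusted p under 0.05), where 2.26% of all genes were.

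Of 19 decapping, 5′-to-3′ decay and exosome genes, 10 were called in each treatment (2 higher, 8 lower), with medians of -0.15 and -0.21 against 0.04 and 0.03 over all genes. This is 52.6% of the list, below the 55.9% and 57.4% of all genes called. *Dis3*, the catalytic nuclease of the exosome, had the widest change, from 262.8 ± 35.8 CPM in untreated WT to 65.5 ± 6.96 CPM in *Lkb1*-/- MEFs (-2.0 ± 0.11, FDR 2.3e-12), and -2.12 ± 0.11 (FDR 1e-12) with IL-1β. It was at 76.2 ± 4.69 CPM in untreated A1 and 59.2 ± 8.81 CPM in untreated A2, neither called against *Lkb1*-/- MEFs. The exosome subunit *Exosc5* was lower, with a log2 change of -0.66 without IL-1β (FDR 4.4e-05), the decapping enzyme *Dcp2* with it (-0.67, FDR 0.00016). Both also stood lower in the other state. *Exosc5* with IL-1β was at 22.9 ± 1.96 CPM in WT and 15.3 ± 1.41 CPM in *Lkb1*-/- MEFs. Untreated *Dcp2* was at 135.4 ± 8.05 and 90.5 ± 10.5 CPM. *Exosc10* (0.36 and 0.30) and *Edc4* (0.29 and 0.19) were higher in both states. Without a replicate block none of the 19 was called with IL-1β in any genotype, where 1.99 to 5.68% of all genes were. At an unadjusted p under 0.05 (edgeR) there were 1, 1, 0 and 2 in WT, *Lkb1*-/-, A1 and A2.

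Among 13 other AU-rich element binders and relatives, 11 were tested and 5 (3 higher, 2 lower) and 6 (2 higher, 4 lower) were called in *Lkb1*-/- against WT MEFs, with medians of -0.12 and -0.23. These are 45.5% and 54.5% of the genes tested, below the 55.9% and 57.4% of all genes. *Zc3h12b*, another Regnase relative, was at 4.22 CPM in untreated WT and 16.9 CPM in *Lkb1*-/- MEFs, higher by 2.0 (FDR 8.4e-10), and by 1.77 (FDR 5.1e-09) with IL-1β. The stress granule proteins parted, *Tia1* being higher (0.58 and 0.63) and *Tial1* lower (-0.44 and -0.46). *Pum2*, which binds 3′ end motifs of its own, was lower with IL-1β (-0.23, FDR 0.033).

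Upstream regulators were tested in a list of 11, of which 6 were called in each treatment (3 higher, 3 lower), with medians of -0.08 and -0.03. This is 54.5% of the list, below the 55.9% and 57.4% of all genes. *Malt1*, the protease that cleaves Regnase-1, was lower, with a log2 change of -0.78 (FDR 3.8e-08) and -0.71 (FDR 1.3e-07), and *Mapkapk2*, the kinase MK2 that phosphorylates tristetraprolin, was lower too (-0.49, FDR 0.00022, and -0.37, FDR 0.0030). *Mapkapk3*, which encodes the related kinase MK3, changed the most in the list and the opposite way, from 1.99 ± 0.238 CPM in untreated WT to 18.3 ± 1.03 CPM in *Lkb1*-/- MEFs (3.2 ± 0.15, FDR 1.9e-13) and from 2.32 ± 0.609 to 13.7 ± 1.2 CPM with IL-1β (2.56 ± 0.15, FDR 5.2e-12). It lies under the expression minimum for named genes and was chosen after its values were seen. *Dusp1*, a phosphatase that turns off p38, was higher by 0.37 (FDR 0.0013) and 0.50 (FDR 5.9e-05), and *Btrc*, a ligase subunit that targets Regnase-1, by 0.33 (FDR 0.0080) and 0.34 (FDR 0.0073). Against *Lkb1*-/- MEFs, 9 of the 11 were called in A1 (2 higher, 7 lower) and 6 in A2 (1 higher, 5 lower), in each treatment. These are 81.8% and 54.5% of the list, where 35.3% and 32.3% of all genes were called untreated and 36.7% and 32.8% with IL-1β. *Mapkapk2* was lower in untreated A1 (-0.43, FDR 0.0018) and A2 (-0.62, FDR 6.2e-05), as were *Dusp1* (-0.31, FDR 0.011, and -0.90, FDR 2.2e-07) and *Btrc* (-0.47, FDR 0.00098, and -0.45, FDR 0.0018). *Malt1* was higher in untreated A1 (0.25, FDR 0.017) and lower in untreated A2 (-0.25, FDR 0.022). *Mapkapk3* was lower in untreated A1 (-1.62, FDR 2.4e-08) and not called in untreated A2 (0.08, FDR 0.69).

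Of 13 known target transcripts, 11 were tested. With IL-1β 10 were called in *Lkb1*-/- against WT MEFs (9 higher, 1 lower) with a median of 1.14, and without it 6 were (6 higher) with a median of 1.19, or 0.95 when 4 genes that one group barely held were set to their bound at a floor of 3 counts per library. These are 90.9% and 54.5% of the targets tested, where 57.4% and 55.9% of all genes were called, so the untreated share is near that of all genes. *Cxcl1*, a neutrophil chemokine, was at 154.1 ± 2.57 CPM in IL-1β-treated WT and 577.5 ± 31.2 CPM in *Lkb1*-/- MEFs (1.91, FDR 1.9e-08). *Ptgs2*, the inducible cyclooxygenase, was at 336.1 ± 52.8 and 707.6 ± 114 CPM (1.07, FDR 0.00099). *Nfkbiz*, a stem-loop target of Regnase-1, was higher by 1.19 (FDR 1.4e-08) without IL-1β. Against *Lkb1*-/- MEFs 8 targets were lower in IL-1β-treated A1 and 7 in A2, none higher, with medians of -0.90 and -1.33, or -0.58 and -0.82 with 1 such gene at its bound. These are 72.7% and 63.6% of the targets tested, where 36.7% and 32.8% of all genes were called. The targets were chosen with earlier results of these data known, so the shares called are not a test of this list. Levels of mRNA do not separate synthesis from decay, and no decay rate was measured here.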

How the data were processed

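RNA-seq libraries of 24 MEF samples were analysed. The labels and methods give Trim Galore 0.6.0 and STAR 2.7.8a, with GRCm38 (mm10) and a GENCODE annotation. The deposited files hold STAR's raw counts per gene, 1 file a library. The column for the second read strand was used, as it held 95.47 to 95.95% of stranded counts. Between 26.72 and 34.42% of read pairs, in 4 lines that name no gene, were left out. The labels and the study's methods name different library kits, which was not resolved.

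Counts were fitted with edgeR 4.0.16 (R 4.3.3): TMM scaling, filterByExpr, 1 quasi-likelihood model over all 8 groups and 15 contrasts, with Benjamini-Hochberg adjustment over 17522 genes (FDR under 0.05). The common biological coefficient of variation was 0.129. Sums of 38842901 to 48594394 counts limit precision only for genes of few counts. Exact permutation of 3 against 3 libraries cannot go below p = 0.1 and was not used. Scripts were tested on simulated data.

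Same-numbered libraries deviated together (Pearson's r over 0.1 for every pair) in 10 of the 15 contrasts, including all 4 IL-1β responses, and the labels do not say what a number stands for. Beside those contrasts the blocked value is given where it changes a call. Alternatives were DESeq2 1.42.0, its size factors, upper quartile scaling, other filters, unstranded counts, a newer quasi-likelihood method, blocks, compared groups only and leaving out each library.

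The 9 genes, the lists and the rule for named genes were chosen with earlier results of these data known. Named from each list are up to 2 genes a direction with the largest change among calls with a mean log2 CPM above 3 and groups that do not overlap, in *Lkb1*-/- against WT MEFs and in the *Lkb1*-/- response. Exceptions are *Mapkapk3*, added after its values were seen, *Stk11* and *Crtc2*, the targeted genes, the markers, and for each of the 9 genes the 2 genes of most similar pattern. Where a named gene is followed into the clones, it was chosen in *Lkb1*-/- against WT MEFs.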

Additional observations from a re-analysis of the deposited data

Results flagged for a closer look

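In 24 libraries the response of *Zfp36* to IL-1β differed between *Lkb1*-/- and WT MEFs in fits with a replicate term. With the replicate number as a block across all libraries the difference of responses was -0.47 ± 0.11 (SE, FDR 0.019), and with a block within each genotype -0.46 ± 0.088 (FDR 0.0017). In the fit without a block it was -0.47 at FDR 0.11. *Zfp36l2* differed in the fit with a block within each genotype (-0.30 ± 0.063, FDR 0.0040) and not without it (FDR 0.83). These 3 values come from 27 tests of response differences in each of 3 fits. The block within each genotype rests on same-numbered untreated and treated libraries, which deviated together in WT (r 0.13 to 0.332) and in *Lkb1*-/- MEFs (0.158 to 0.376). The block across all libraries also takes numbers as shared between genotypes, where the lowest r was 0.0355. In each genotype both genes were followed over 6 libraries.

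Counts on the opposite strand, which the comparisons do not use, were above 3 in every library at 6 of the 9 genes. The highest library held 30 such counts at *Zfp36*, 31 at *Zfp36l2*, 26 at *Rc3h1*, 28 at *Rc3h2*, 28 at *Arid5a* and 76 at *Elavl1*. As a share of both strands these were 0.817 to 6.34% at *Zfp36* and 1.15 to 5.06% at *Arid5a*, against a median of 0.439% over all genes. Of these 6 genes, the annotation places an antisense gene opposite *Zfp36* (Gm44710) and *Zfp36l2* (AC132455.1) and *Ccl25* opposite *Elavl1*, and no gene opposite *Rc3h1*, *Rc3h2* or *Arid5a*. Groups of 3 libraries were not tested for outliers.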

How the results depend on the processing

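No called change of the 9 genes turned its direction under the alternatives run. The number of genes called of the 9 moved by more than 1.5 times as follows. For A1 against *Lkb1*-/- untreated, 3 became 5 with upper quartile scaling, a minimum of 10 counts in all libraries, a replicate block (which called 48.1% of all genes) or the compared groups only. With IL-1β, 2 became 4, 5 and 6 with upper quartile scaling, that minimum and the block, and 5 with DESeq2. For A2 against A1, 4 became 8 untreated with the block (which called 46.3% of all genes), and with IL-1β 2 became 4 with that minimum, 5 with the block and 1 with the compared groups only. The IL-1β response in A1 went from 3 to 1 with unstranded counts and in A2 from 4 to 2 with the compared groups only. The response difference of *Lkb1*-/- minus WT went from 0 to 1 with the block or DESeq2 and to 2 with a block within each genotype. The causes were not tested.

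Leaving out 1 library gave 4 to 7 called for *Lkb1*-/- against WT untreated and 6 to 6 with IL-1β. It gave 2 to 3 and 3 to 4 for untreated A1 and A2 against *Lkb1*-/-, and 2 to 2 and 5 to 5 with IL-1β. A2 against A1 gave 2 to 5 untreated (2 without A1 replicate 1) and 1 to 4 with IL-1β (1 without A1 replicate 2, 4 without A1 replicate 1). The responses gave 1 to 3 in WT (1 without untreated replicate 2), 3 to 4 in *Lkb1*-/-, 1 to 2 in A1 and 4 to 4 in A2, and the differences 0 to 1, 0 to 0 and 0 to 0. In the same fits the number of all genes called was 9085 to 9523 and 9288 to 9662 for *Lkb1*-/- against WT untreated and with IL-1β, 5220 to 5626 and 5355 to 5891 for A1 against *Lkb1*-/-, 4613 to 6039 and 4864 to 5797 for A2 against *Lkb1*-/-, and 4732 to 6116 and 4253 to 5507 for A2 against A1.

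The replicate block raised the number of all genes called in the IL-1β responses from 396 to 1629 in WT, 831 to 2601 in *Lkb1*-/-, 348 to 1684 in A1 and 995 to 3133 in A2, and for the response difference of *Lkb1*-/- minus WT from 43 to 311, or to 1003 within each genotype. DESeq2 gave 624 in WT and 573 in A1, and no filter 954, 1428, 908 and 1643. The compared groups only gave 246 in A2. Leaving out 1 library gave 203 to 412 in WT (203 without untreated replicate 2), 544 to 763 in *Lkb1*-/- (544 without untreated replicate 2), 197 to 233 in A1 (197 without untreated replicate 2) and 679 to 1890 in A2 (1890 without untreated replicate 1), and for the difference of *Lkb1*-/- minus WT 23 to 57. The shares of all genes set beside the response counts move with these numbers. Where numbers did not pair the libraries, the block left the untreated *Lkb1*-/- against WT comparison with *Arid5a* called (-0.37, FDR 0.0040), 5 of 6 libraries there correlating best with their own number and 6 of 6 in untreated A1 against *Lkb1*-/- and A2 against A1. In the paired contrasts the block changed no call of the 9 genes beyond those given beside the results. Upper quartile scaling shifted the median of all genes by 0.103 in IL-1β-treated *Lkb1*-/- against WT. *Arid5a* and *Zc3h12a*, at about 10 CPM without IL-1β, were the least precise of the 9 (SE 0.15 to 0.17, and 0.22 for differences of responses).

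Other settings ended calls given in the text. Unstranded counts ended those of *Zc3h12c* in untreated A2 (-0.25, FDR 0.056) and IL-1β-treated A1 (-0.21, FDR 0.088) against *Lkb1*-/- MEFs, and with IL-1β those of *Zfp36l1* in WT (0.46, FDR 0.056) and A1 (0.45, FDR 0.061) and of *Zc3h12c* in A1 (0.36, FDR 0.059). A fit to the compared groups only ended *Zc3h12c* in the same 2 clone comparisons (-0.28, FDR 0.052, and -0.23, FDR 0.073) and in the A1 response (0.37, FDR 0.050), *Zfp36* in IL-1β-treated A2 against *Lkb1*-/- (0.26, FDR 0.064), *Arid5a* in IL-1β-treated A2 against A1 (0.51, FDR 0.076) and *Zfp36l1* in the A2 response (0.60, FDR 0.072). No filter ended *Zfp36* in untreated A2 against A1 (0.29, FDR 0.072). In A2 against A1, *Arid5a* untreated passed without A2 replicate 1 (0.46, FDR 0.033), and with IL-1β *Rc3h2* (-0.24, FDR 0.036) and *Elavl1* (-0.18, FDR 0.049) without A1 replicate 1 and *Zfp36l2* (0.24, FDR 0.048) without A2 replicate 1. The causes of these changes were not tested.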

Other observations

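For each of the 9 genes the pair of genes with the most similar log2 CPM over the 24 libraries, among 9365 genes with a mean log2 CPM above 3, was found by Pearson correlation. The libraries share genotype and treatment groups, so the values describe patterns across 8 groups and carry no p. *Zfp36* was closest to *Arhgef28* (r = 0.983) and *Tuba4a* (0.981), and *Zfp36l1* to *Ubb* (0.978), a polyubiquitin gene, and *Camk1d* (0.969). *Zfp36l2* was closest to *Ikzf5* (0.944) and *Kif13a* (0.941), and *Zc3h12c* to *Stx6* (0.955) and *Gopc* (0.954). *Zc3h12a* was closest to *Cebpd* (0.947), a transcription factor gene of the acute-phase response, and to *Cxcl1* (0.940). *Rc3h1* was closest to *Asxl2* (0.970) and *Fem1b* (0.953), *Rc3h2* to *Rbfox2* (0.928) and *Setd7* (0.909), *Arid5a* to *Lysmd3* (0.902) and *Txnip* (0.871), and *Elavl1* to the translation factor gene *Eif3a* (0.984) and the proteasome gene *Psmd1* (0.983).

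Among the 9 genes themselves the strongest correlations over the 24 libraries were between *Zfp36* and *Zfp36l1* (r = -0.84), *Zfp36* and *Zfp36l2* (0.83), *Zfp36l1* and *Elavl1* (-0.82), *Zc3h12c* and *Rc3h1* (0.78) and *Zc3h12c* and *Elavl1* (0.77).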
